A study of Mus musculus with 8 samples.

Results

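The 10 genes described here mark the macrophages of the mouse liver. They were taken by symbol from the deposited table, 10 of its 55385 genes, and all 10 were found. Of these, 5 mark resident Kupffer cells (*Clec4f*, *Vsig4*, *Timd4*, *Cd5l* and *Marco*), 2 are shared by most macrophages (*Adgre1* and *Lyz2*), 2 mark lipid-associated macrophages (*Trem2* and *Gpnmb*) and 1 marks inflammatory monocytes (*Ly6c2*). Their values were available in all 8 liver libraries of the series, 4 from *Usp39*-HKO mice and 4 from control littermates, each library from 1 mouse.

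All mice were males on the C57BL/6J background, 5 weeks of age, with a 16 h fast before the liver was taken. In *Usp39*-HKO mice the floxed exon 2 of *Usp39*, which encodes a component of the spliceosome, is deleted by a Cre recombinase under the albumin promoter, which is active in hepatocytes and in other cells of their lineage. Macrophages do not use this promoter, and a whole liver is a mixture of hepatocytes, endothelial cells, stellate cells, bile duct cells and blood cells. Control mice are labelled as wild type and described in the methods as littermates, without their *Usp39* and Cre alleles. The comparison asks how the livers of the 2 genotypes differed in their RNA.

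Kupffer cells sit in the liver sinusoids, where they take up particles, dying cells and old red cells from the blood. They are seeded from embryonic precursors and renew themselves locally, and monocytes from the blood can replace those that are lost. In fatty or injured liver, recruited macrophages around lipid and dying cells take on a lipid-associated state, known for the lipid receptor *Trem2* and the lysosomal glycoprotein *Gpnmb*. PU.1, the product of *Spi1*, is the transcription factor on which the macrophage lineage depends.

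Promoter sequences are shown for 5 members that were called higher in *Usp39*-HKO livers and whose window holds no annotated exon. Of these, *Trem2* and *Gpnmb* were called only in alternative fits with other filters. The windows of *Clec4f* and *Lyz2* overlap an exon and are not shown. Each sequence is the 250 bases before the RefSeq start on GRCm38.p6, written 5′ to 3′ on the strand of the gene. Capitals mark the PU.1 core GAGGAA, or TTCCTC where it lies on the opposite strand, and in *Cd5l* also the half-site TGCTGA of the Maf recognition element, or TCAGCA on the opposite strand. The window of *Gpnmb* held none of the motifs searched and has no capitals.
Marco, chr1:120505025-120505274, minus strand: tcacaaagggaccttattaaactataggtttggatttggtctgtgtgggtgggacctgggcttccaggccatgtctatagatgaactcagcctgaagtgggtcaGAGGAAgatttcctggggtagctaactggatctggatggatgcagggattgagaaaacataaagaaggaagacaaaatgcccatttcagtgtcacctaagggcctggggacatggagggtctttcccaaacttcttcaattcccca
Cd5l, chr3:87357631-87357880, plus strand: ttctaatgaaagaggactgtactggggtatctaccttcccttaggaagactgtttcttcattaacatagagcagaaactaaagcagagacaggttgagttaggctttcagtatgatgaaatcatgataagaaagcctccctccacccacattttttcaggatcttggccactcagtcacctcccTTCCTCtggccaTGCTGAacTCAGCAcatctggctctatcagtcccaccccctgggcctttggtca
Vsig4, chrX:96293439-96293688, minus strand: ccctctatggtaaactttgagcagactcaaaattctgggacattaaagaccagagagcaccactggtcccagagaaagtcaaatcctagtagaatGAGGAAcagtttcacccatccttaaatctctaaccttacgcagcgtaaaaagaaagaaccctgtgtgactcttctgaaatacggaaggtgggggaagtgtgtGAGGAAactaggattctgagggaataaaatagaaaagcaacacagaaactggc
Trem2, chr17:48346151-48346400, plus strand: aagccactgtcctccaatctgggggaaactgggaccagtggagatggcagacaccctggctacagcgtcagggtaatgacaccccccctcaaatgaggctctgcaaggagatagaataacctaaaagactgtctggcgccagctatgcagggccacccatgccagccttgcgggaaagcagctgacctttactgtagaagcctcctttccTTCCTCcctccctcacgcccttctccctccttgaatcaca
Gpnmb, chr6:49036268-49036517, plus strand: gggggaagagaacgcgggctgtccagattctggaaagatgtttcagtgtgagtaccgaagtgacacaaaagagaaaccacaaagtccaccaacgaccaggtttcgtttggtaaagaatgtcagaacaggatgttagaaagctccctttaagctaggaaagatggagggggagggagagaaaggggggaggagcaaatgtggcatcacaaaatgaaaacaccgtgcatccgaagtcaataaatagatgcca

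RefSeq windows were found for 9 of the 10 members. The PU.1 core, searched on both strands, was present in 5 of the 9 windows (*Marco*, *Cd5l*, *Vsig4*, *Trem2* and *Ly6c2*) and in 23.1% of the 27025 promoter windows of that length. The nearest match to the start lay 40 bases upstream in *Trem2*, 53 in *Vsig4*, 66 in *Cd5l* and 146 in *Marco*. The Maf half-site was present in 4 of the 9 windows (*Cd5l*, *Clec4f*, *Lyz2* and *Timd4*) and in 15.8% of all windows. The M-box core CATGTG, bound by factors of the MITF and TFE family, was present in 1 window (*Timd4*) and in 12.2% of all windows. The E-box CACGTG and the AP-1 site TGACTCA were present in 0 of the 9 windows, against 6.05% and 4.43% of all windows. These matches describe letters in a window and were not tested as binding sites.

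Counts on genes summed to between 8589636 and 10418450 per liver. *Usp39* (ENSMUSG00000056305, chr6:72318678-72345184 on GRCm38, minus strand) stood at 9.35, 10.4, 8.76 and 9.78 FPKM in controls 1 to 4 and at 8.37, 8.63, 8.70 and 8.07 FPKM in *Usp39*-HKO livers 1 to 4. FPKM are counts scaled to the exon length of the gene and to the total of the library. Every *Usp39*-HKO liver lay below every control, and the fitted log2 fold change was -0.41 (standard error 0.11, edgeR adjusted p = 0.0212). A total over the gene keeps the reads of the other exons and of cells without Cre, and the adjusted p was 0.247 without TMM scaling, which removes the difference in the composition of the libraries. The tissue label held, since *Alb*, the main hepatocyte product, stood at 7956 ± 533 FPKM in control and 8423 ± 1155 FPKM in *Usp39*-HKO livers (SD, n = 4 each). A library stood apart for some members, and those values are given with them.

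Of the 10 members, 8 passed the filter for testing, which asked 4 or more of the 8 livers to reach 0.5 FPKM. At an adjusted p under 0.05, edgeR called 5 of these 8 higher in the *Usp39*-HKO genotype (*Clec4f*, *Vsig4*, *Cd5l*, *Marco* and *Lyz2*) and 0 lower. Over all 14340 genes tested, 10.9% were called higher and 11.6% lower. Without TMM scaling, the median log2 fold change over all genes was 0.24 rather than 0.00, and all 8 members kept a positive sign under each scaling tried. In whole liver, more macrophages and more of these RNAs per macrophage cannot be told apart.

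**Figure D1:**
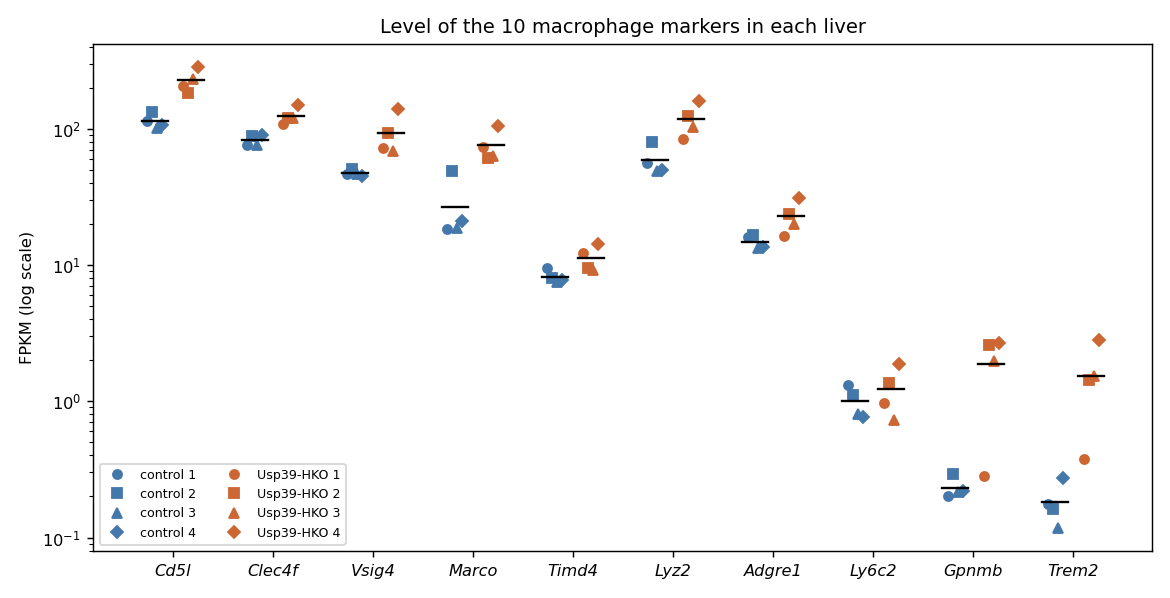
FPKM of the 10 markers in each liver on a log axis, with control livers in blue, Usp39-HKO livers in orange, a symbol per replicate and the group mean as a bar. Every Usp39-HKO liver lay above every control for Cd5l, Clec4f, Vsig4, Marco, Lyz2 and Trem2, and the groups overlapped for Timd4, Adgre1, Ly6c2 and Gpnmb.

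*Cd5l* (ENSMUSG00000015854, chr3:87357881-87371073, plus strand) had the highest level of the 10 genes in both genotypes. It encodes a secreted scavenger protein that macrophages release into the blood. Its FPKM were 114, 133, 102 and 106 in controls 1 to 4 and 206, 183, 230 and 283 in *Usp39*-HKO livers 1 to 4. The groups did not overlap, and *Usp39*-HKO 4 stood highest. *Cd5l* rose, with 0.75 as its log2 fold change (standard error 0.14, edgeR adjusted p = 0.00355), with group means of 114 ± 13.9 and 226 ± 42.8 FPKM (SD, n = 4 each).

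*Marco* (ENSMUSG00000026390, chr1:120474538-120505024, minus strand), a scavenger receptor for bacteria and particles, had the largest change of the 5 resident markers. Its FPKM were 18.2, 49.1, 18.6 and 21.0 in control livers and 73.7, 61.4, 63.4 and 104 in *Usp39*-HKO livers. Control 2 stood well above the other 3 controls and still below every *Usp39*-HKO liver. *Marco* rose by 1.25 on the log2 scale (standard error 0.29, edgeR adjusted p = 0.0117), and without control 2 it was 1.73 (adjusted p = 0.00028).

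*Vsig4* (ENSMUSG00000044206, chrX:96247203-96293438, minus strand) encodes a complement receptor of the immunoglobulin superfamily that captures opsonised particles from the blood. Its FPKM were 46.5, 50.2, 46.4 and 44.6 in control livers and 72.3, 92.7, 68.4 and 138 in *Usp39*-HKO livers. The controls lay close together and the *Usp39*-HKO livers spread over a 2.02-fold range, all above the controls. *Vsig4* rose by 0.73 on the log2 scale (standard error 0.16, edgeR adjusted p = 0.00949).

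*Clec4f* (ENSMUSG00000014542, chr6:83644542-83656187, minus strand), a C-type lectin that in the mouse is nearly exclusive to Kupffer cells, moved less. Its FPKM were 76.3, 88.1, 76.1 and 89.6 in control livers and 108, 120, 120 and 148 in *Usp39*-HKO livers. The groups did not overlap, and the highest *Usp39*-HKO liver was again number 4. Its log2 fold change was 0.35 (standard error 0.10, edgeR adjusted p = 0.0336). This call was lost when control 1, control 3, control 4, *Usp39*-HKO 3 or *Usp39*-HKO 4 was left out (adjusted p between 0.0588 and 0.111) and without a filter on low genes (adjusted p = 0.113).

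*Timd4* (ENSMUSG00000055546, chr11:46810800-46844332, plus strand) encodes a receptor for phosphatidylserine on dying cells and marks the Kupffer cells of embryonic origin. Its FPKM were 9.52, 8.03, 7.45 and 7.77 in control livers and 12.3, 9.43, 9.21 and 14.3 in *Usp39*-HKO livers. *Usp39*-HKO 2 and 3 lay just below control 1, so the groups overlapped, while *Usp39*-HKO 1 and 4 lay above every control. The log2 fold change of 0.22 (standard error 0.15, edgeR adjusted p = 0.321) did not pass the test, and a two-sided exact permutation test of the FPKM gave p = 0.0857. Without TMM scaling, where the median log2 fold change over all genes was 0.24, its edgeR adjusted p was 0.0488.

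*Adgre1* (ENSMUSG00000004730, chr17:57358691-57483527, plus strand) encodes F4/80, the surface protein most used to stain mouse macrophages. Its FPKM were 16.0, 16.6, 13.3 and 13.5 in control livers and 16.2, 23.8, 19.97 and 30.8 in *Usp39*-HKO livers. *Usp39*-HKO 1 fell within the control range and the other 3 lay above it. Its log2 fold change of 0.36 (standard error 0.15, edgeR adjusted p = 0.105) did not pass, and it was 0.48 with an adjusted p of 0.022 when *Usp39*-HKO 1 was left out. It also passed without TMM scaling (edgeR adjusted p = 0.0217), where the median log2 fold change over all genes was 0.24.

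*Lyz2* (ENSMUSG00000069516, chr10:117277331-117282321, minus strand) encodes the lysozyme of macrophages and neutrophils. Its FPKM were 55.6, 79.8, 48.9 and 49.6 in control livers and 84.2, 125, 103 and 160 in *Usp39*-HKO livers. The groups did not overlap in FPKM, but on TMM-scaled CPM (counts scaled to the library total and the TMM factor) *Usp39*-HKO 1 fell below control 2. *Lyz2* rose by 0.76 on the log2 scale (standard error 0.18, edgeR adjusted p = 0.0136). Its paralog *Lyz1* had at most 2 counts in any liver.

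*Trem2* (ENSMUSG00000023992, chr17:48346401-48354147, plus strand), a receptor for lipids that signals through the adaptor *Tyrobp*, was near the limit of detection in control livers. Its FPKM were 0.176, 0.163, 0.118 and 0.272 in controls and 0.374, 1.43, 1.53 and 2.82 in *Usp39*-HKO livers. The counts behind them were 8, 8, 5 and 14 in controls and 18, 72, 72 and 132 in *Usp39*-HKO livers. All 4 *Usp39*-HKO livers lay above the controls, the first only a little. *Trem2* missed the filter because only 3 livers reached an FPKM of 0.5, so its change was taken from the fit over the 13936 genes that edgeR's count-based filter kept. There it rose by a log2 fold change of 2.76 (standard error 0.50, edgeR adjusted p = 0.00367), in a fit that called 12.3% of genes higher. It passed that filter through the *Usp39*-HKO livers, where it was high, so its call there is no independent support. Without a filter the log2 fold change was 2.74.

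*Gpnmb* (ENSMUSG00000029816, chr6:49036546-49070929, plus strand) also missed the filter with 3 livers above an FPKM of 0.5. Its FPKM were 0.201, 0.294, 0.214 and 0.221 in control livers and 0.284, 2.61, 1.96 and 2.66 in *Usp39*-HKO livers. *Usp39*-HKO 1 lay inside the control range and the other 3 lay far above it, so the groups overlapped. The log2 fold change was 2.72 (standard error 0.53, edgeR adjusted p = 0.00483) in the fit with the count-based filter, and the two-sided exact permutation p over the FPKM was 0.0571.

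*Ly6c2* (ENSMUSG00000022584, chr15:75108158-75111970, minus strand), which encodes the Ly6C antigen of inflammatory monocytes, was low in both genotypes. Its FPKM were 1.31, 1.10, 0.807 and 0.771 in control livers and 0.976, 1.36, 0.727 and 1.89 in *Usp39*-HKO livers. The groups overlapped throughout, and the lowest and the highest liver were both *Usp39*-HKO. The log2 fold change was 0.06 (standard error 0.30, edgeR adjusted p = 0.912), on 19 to 49 counts per liver. Of its longest transcript, 38.9% is shared with *Ly6c1* at an identity of at least 97% over at least 150 bases, so the split of reads between these copies is uncertain. *Ly6c1* was called higher (log2 fold change 1.24, edgeR adjusted p = 0.0238) on at most 21 counts, and so was the neighbouring family member *Ly6a* (1.19, adjusted p = 0.00313). For *Ly6c1* the highest control had 0.455 FPKM, so it passed the filter through the *Usp39*-HKO livers. Its call is no independent support.

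**Figure D2:**
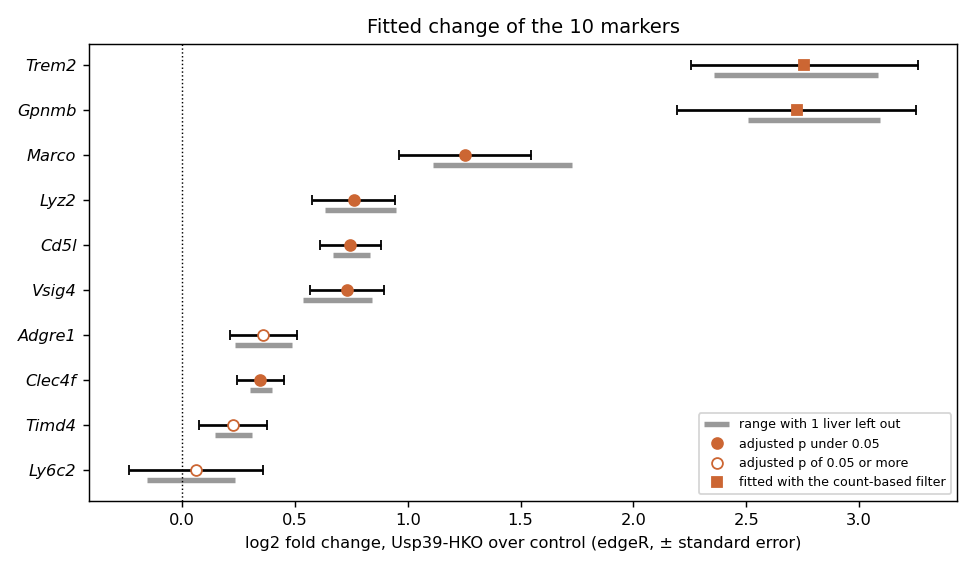
Log2 fold change of each marker, Usp39-HKO over control, from edgeR, with bars for the standard error, filled symbols for an adjusted p under 0.05 and a grey bar for the range when each liver in turn is left out. Trem2 (2.76) and Gpnmb (2.72), drawn as squares, come from the fit with the count-based filter, and the other 8 lie between 0.06 (Ly6c2) and 1.25 (Marco).

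Every *Usp39*-HKO liver lay above every control in FPKM for 6 of the 10 members, and for 5 of 10 on TMM-scaled CPM, where *Lyz2* no longer did. The same held for 23.9% of all genes tested in FPKM and for 11.9% on TMM-scaled CPM, a set that leaves out *Trem2* and *Gpnmb*. For the 6 members a two-sided exact permutation test gave p = 0.0286, the smallest that 70 assignments of 8 livers can give.

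By FPKM, the order of the first 7 levels was the same in both genotypes, *Cd5l*, *Clec4f*, *Lyz2*, *Vsig4*, *Marco*, *Adgre1* and *Timd4*. In control livers *Cd5l* (114 ± 13.9 FPKM) lay above *Clec4f* (82.5 ± 7.34) without overlap, whereas the ranges of *Clec4f* and *Lyz2* (58.5 ± 14.5), of *Lyz2* and *Vsig4* (46.9 ± 2.34) and of *Vsig4* and *Marco* (26.7 ± 15.0) overlapped. *Marco*, *Adgre1* (14.9 ± 1.72) and *Timd4* (8.19 ± 0.918) followed without overlap between neighbours. The same neighbours among these 7 overlapped in *Usp39*-HKO livers. At the low end, controls had *Ly6c2* (0.999 ± 0.257 FPKM) above *Gpnmb* (0.233 ± 0.042), and the range of *Gpnmb* overlapped that of *Trem2* (0.182 ± 0.0647). In *Usp39*-HKO livers *Gpnmb* (1.88 ± 1.11 FPKM) and *Trem2* (1.54 ± 0.9996) had higher means than *Ly6c2* (1.24 ± 0.505), and the neighbours in that order overlapped (SD, n = 4 in each group).

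Counts of each member were also set against those of *Adgre1* in the same liver, a ratio that does not depend on the scaling between libraries. The log2 ratio of *Clec4f* to *Adgre1* was 2.09 ± 0.20 in control and 2.09 ± 0.22 in *Usp39*-HKO livers (SD, n = 4 each). The ratio of *Lyz2* to *Adgre1* was between 0.49 and 0.97 on the log2 scale in controls and between 1.07 and 1.09 in *Usp39*-HKO livers, without overlap. That of *Trem2* was between -6.07 and -4.97 in controls and between -4.79 and -2.83 in *Usp39*-HKO livers, also without overlap. These 2 of the 9 members lay higher without overlap, beside 4.67% of the genes tested, and 0 of 9 lay lower, beside 17.1% of the genes tested. *Trem2* and *Gpnmb* are not among the genes tested, so the 2 sets are unlike in that respect.

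For the remaining members the ratios overlapped. The mean log2 ratio to *Adgre1* differed between *Usp39*-HKO and control livers by 1.99 for *Gpnmb*, 1.02 for *Marco*, 0.40 for *Cd5l*, 0.35 for *Vsig4*, -0.13 for *Timd4* and -0.33 for *Ly6c2*. When the summed counts of *C1qa*, *C1qb*, *C1qc*, *Csf1r* and *Cd68* took the place of *Adgre1*, the ratios of all 9 members overlapped between the genotypes. With that reference the mean difference was 0.70 for *Marco*, 0.08 for *Cd5l*, 0.03 for *Vsig4*, 0.10 for *Lyz2*, -0.32 for *Clec4f*, -0.45 for *Timd4* and -0.65 for *Ly6c2*. It was 1.85 for *Trem2* and 1.67 for *Gpnmb*. For *Adgre1* itself, set against the summed reference, it was -0.32, also with overlap. A ratio within a liver shows unequal change of its parts and not which of them moved.

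**Figure D3:**
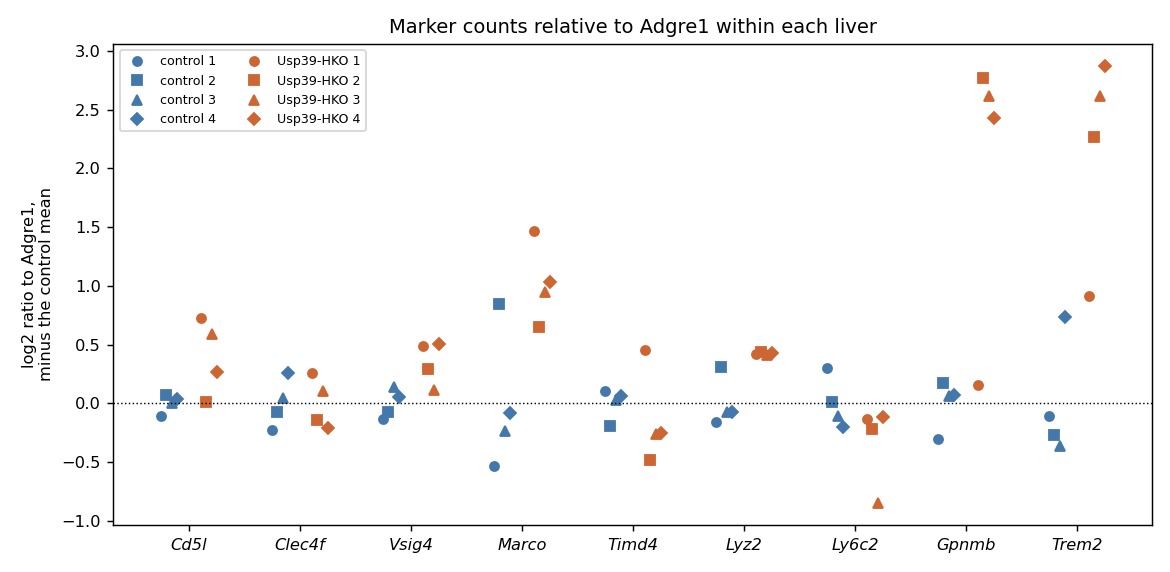
Log2 ratio of each marker's counts to those of Adgre1 in the same liver, less the control mean of that marker, with a symbol per liver. The 4 Usp39-HKO livers lie together above the controls for Lyz2 and spread widely for Trem2 and Gpnmb, while the livers of both genotypes intermix for Clec4f.

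The 4 *Usp39*-HKO livers differed among themselves most for the lipid-associated markers. Their highest value was 7.52 times the lowest for *Trem2* and 9.34 times for *Gpnmb*, against 1.37 times for *Clec4f*, 1.54 for *Cd5l* and 1.55 for *Timd4*. *Usp39*-HKO 1 was the lowest of the 4 for *Clec4f*, *Adgre1*, *Lyz2*, *Trem2* and *Gpnmb*. In that liver *Trem2* stood at 2.06 times and *Gpnmb* at 1.22 times the control mean, while the other 3 livers stood at 7.84 to 15.5 times for *Trem2* and at 8.44 to 11.4 times for *Gpnmb*. *Usp39*-HKO 4 was the highest of the 4 in FPKM for 10 of 10 members and on TMM-scaled CPM for 8 of 10. The TMM factor of that library, 1.19, was the largest of the 8.

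*Usp39*-HKO 1 was also the lowest of the 4 for the lipid-associated genes *Spp1*, *Cd63*, *Capg*, *Itgax* and *Lgals3*, but not for the cell division genes *Ccnb1*, *Mki67* and *Plk1*. *Mmp12*, a macrophage elastase that was named here after its values were seen, stood at 0.156 FPKM in *Usp39*-HKO 1 and at 3.59, 2.64 and 2.74 FPKM in the other 3, with a control maximum of 0.0602 FPKM. *Mmp12* missed the FPKM filter and passed the count-based one through the *Usp39*-HKO livers, where it was high. In that fit its log2 fold change was 5.95 (edgeR adjusted p = 0.00195). The value rests on 4, 3, 0 and 1 counts in the controls, and the call is no independent support. *Ccnb1*, the cyclin of mitotic entry, stood at 8.95 FPKM in *Usp39*-HKO 1, the highest of the 4, where the lowest of the other 3 had 4.77 FPKM and the control maximum was 0.813 FPKM. *Epcam*, a surface protein of bile duct cells, stood at 1.55 FPKM in *Usp39*-HKO 1, the lowest of the 4, with at least 3.98 FPKM in the other 3. The stellate cell marker *Col1a1* was also lowest in *Usp39*-HKO 1, at 5.71 FPKM, with at least 12.0 FPKM in the other 3. The part of these differences in the results for *Trem2* and *Gpnmb* was not tested. When *Usp39*-HKO 1 or any other liver was left out, *Trem2* kept a log2 fold change between 2.36 and 3.08 and *Gpnmb* between 2.51 and 3.09, each with an adjusted p of at most 0.0205.

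**Figure D4:**
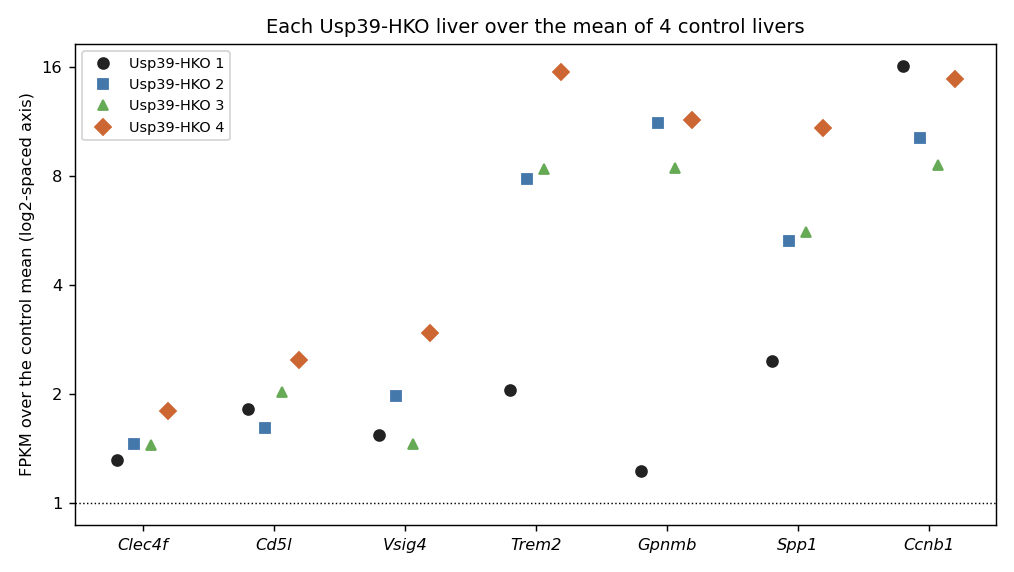
FPKM of each Usp39-HKO liver divided by the mean of the 4 controls on a log2-spaced axis, with a symbol per liver and a dotted line at 1. Usp39-HKO 1 lies at 1.22 for Gpnmb and 2.06 for Trem2, apart from the other 3, but at 16.1 for Ccnb1, above them.

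The genes whose profiles over the 8 livers were closest to that of *Clec4f*, by the root mean square difference of centred log2 CPM, were *Prkab1* (0.0602), *Kansl2* (0.068) and *Dusp7* (0.0687), against a median of 0.338 over all genes. The nearest to *Trem2* were *Spp1* (0.344), *Epdr1* (0.349) and *Lum* (0.384), against a median of 1.40, and *Gpnmb* would rank 10 among them (0.442). The profile itself had an SD over the 8 livers of 0.20 for *Clec4f* and 1.37 for *Trem2* (log2 CPM).

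Of 12 other genes of resident Kupffer cells tested, 4 were called higher, 1 lower and 7 were not called, with a median log2 fold change of 0.37. Over all genes tested, 10.9% were called higher and 11.6% lower. Those that rose were *Id3*, a regulator of Kupffer cell identity (1.11, edgeR adjusted p = 0.0104), the transporter *Slc16a9* (0.79), the interleukin-18 inhibitor *Il18bp* (0.61) and the lectin receptor *Clec1b* (0.47). *Nr1h3*, the liver X receptor that hepatocytes express as well, fell by 0.43 on the log2 scale (edgeR adjusted p = 0.0133). Its call was lost without TMM scaling (edgeR adjusted p = 0.214), and its groups overlapped in FPKM but not on TMM-scaled CPM. The ficolin *Fcna* (0.34, adjusted p = 0.0559) and the iron exporter *Slc40a1* (0.28, adjusted p = 0.218) did not pass. Without TMM scaling, 8 of the 12 were called, all higher. In that fit the median log2 fold change over all genes was 0.24, and the share of all genes called was not counted.

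Of 18 genes that macrophages and other myeloid cells share, 15 were called higher and 0 lower, with a median log2 fold change of 0.75. *Spi1* rose by 0.90 (edgeR adjusted p = 0.00296), from between 3.76 and 5.84 FPKM in controls to between 8.70 and 12.8 FPKM in *Usp39*-HKO livers. The lysosomal protein *Cd68* (0.86), the protease *Ctss* (0.84), the complement subunit *C1qc* (0.80) and the receptor tyrosine kinase *Axl* (0.78) rose as well. The groups overlapped for *Cd68*, with the lowest *Usp39*-HKO liver at 16.4 FPKM and the highest control at 16.8 FPKM. The mannose receptor *Mrc1* (-0.09, adjusted p = 0.62), which sinusoidal endothelium also expresses and whose sign turned without TMM scaling (0.16), and the efferocytosis receptor *Mertk* (0.20, adjusted p = 0.264) did not pass.

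Of 12 other genes of lipid-associated macrophages, 11 were tested, 8 were called higher and 0 lower, with a median log2 fold change of 1.14. Among the genes tested, the largest rises were those of *Spp1*, the secreted osteopontin (2.32, edgeR adjusted p = 0.000924), the tetraspanin *Cd63* (2.17) and the actin capping protein *Capg* (1.76). Next were the integrin *Itgax* (1.298) and the galectin *Lgals3* (1.28). The groups overlapped for *Itgax*, with *Usp39*-HKO 1 at 0.643 FPKM and the control maximum at 0.693 FPKM. *Itgax* also needed *Usp39*-HKO livers to pass the filter. The protease *Ctsd* (0.27, adjusted p = 0.126) and the fatty acid binding protein *Fabp5* (-0.13, adjusted p = 0.835, and 0.13 without TMM scaling) did not pass. Bile duct cells also express *Spp1*, *Cd9* and *Cd63*, so these genes are not particular to macrophages.

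Of 12 other monocyte genes, 7 were tested, 3 were called higher, 1 lower and 3 were not called, with a median log2 fold change of 0.73. The chemokine receptors *Cx3cr1* (2.10, edgeR adjusted p = 0.00405) and *Ccr2* (0.98) rose, as did *Plac8* (0.93). For *Cx3cr1* the highest control had 0.387 FPKM, so it passed the filter through the *Usp39*-HKO livers. *Ccr2* needed those livers too, and the calls of both are no independent support. *Ccr2*, the receptor that draws monocytes out of the marrow, stood between 0.354 and 0.582 FPKM in controls and between 0.898 and 1.36 FPKM in *Usp39*-HKO livers, without overlap. *Fn1*, which hepatocytes make as plasma fibronectin, fell by 0.59 on the log2 scale (edgeR adjusted p = 0.0108), and without TMM scaling by 0.36 (edgeR adjusted p = 0.0524). Without that scaling 4 of the 7 genes were called higher and 0 lower, with a median log2 fold change of 0.24 over all genes. The share of all genes called there was not counted. *Cd14* (0.73, adjusted p = 0.0773) and the chitinase-like *Chil3* (0.18, adjusted p = 0.815) did not pass.

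Of 10 ligands and adhesion molecules that recruit or maintain liver macrophages, 9 were tested, 6 were called higher and 0 lower, with a median log2 fold change of 0.50. These were the monocyte attractant *Ccl2* (2.52, edgeR adjusted p = 0.0192), the ligand *Cx3cl1* of *Cx3cr1* (1.91), the adhesion molecule *Vcam1* (1.22), *Tgfb1* (0.53), *Gdf2* (0.50) and the growth factor *Csf1* (0.45, adjusted p = 0.045). *Ccl2* was low, between 0 and 0.67 FPKM in controls and between 0.814 and 2.67 FPKM in *Usp39*-HKO livers. *Ccl2* and *Cx3cl1* (at most 0.565 FPKM in controls) needed the *Usp39*-HKO livers to pass the filter. Their calls are no independent support. *Bmp10* (0.45, adjusted p = 0.0522) and the Notch ligand *Dll4* (-0.24, adjusted p = 0.58) did not pass. The number called fell to 2 when *Usp39*-HKO 3 or control 4 was left out and to 3 without *Usp39*-HKO 4, control 1 or control 3.

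**Figure D5:**
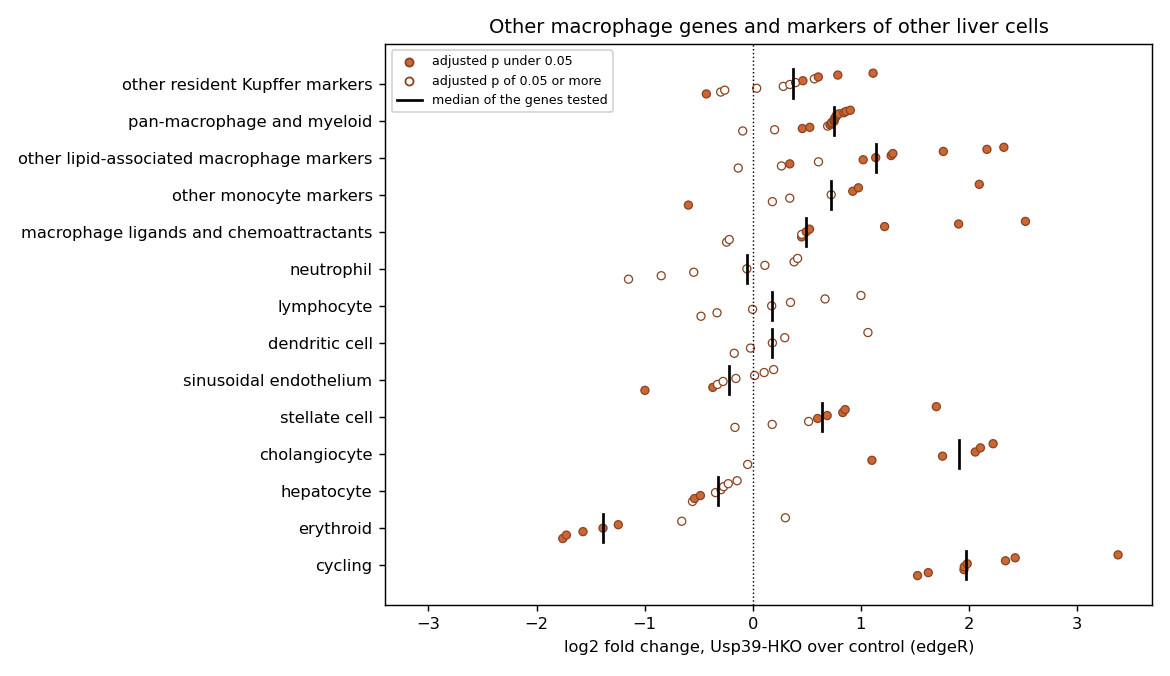
Log2 fold change of each tested gene of the related lists, Usp39-HKO over control, with filled points for an adjusted p under 0.05 and a black bar at the median of each list. The pan-macrophage genes cluster near their median of 0.75, and stellate, cholangiocyte and cycling genes lie to the right as well.

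Markers of other cells moved with the macrophage genes. Of 8 stellate cell markers, 5 were called higher and 0 lower, with a summed level of 144 to 168 FPKM in controls and 223 to 271 FPKM in *Usp39*-HKO livers. Of 8 cholangiocyte markers, 6 were tested and 5 called higher, with a summed level of 11.8 to 13.5 FPKM against 15.4 to 43.3 FPKM. The limma fit called 3 of the 6 higher, and the groups overlapped in FPKM for *Sox9* and *Tspan8*. All 8 genes of dividing cells were called higher, with a summed level of 4.38 to 10.3 FPKM against 23.2 to 45.4 FPKM. Over all genes tested, 10.9% were called higher. The dividing cell genes *Ccnb1*, *Plk1*, *Birc5* and *Aurkb* needed the *Usp39*-HKO livers to pass the filter. So did the cholangiocyte markers *Krt19*, *Cldn7* and *Tspan8*, and the calls of these genes are no independent support. The summed FPKM of the 5 resident members ranged from 250 to 329 in controls and from 467 to 687 in *Usp39*-HKO livers. No defining marker of these 3 lists was at 0 in every liver. The part of these cells in the results for the 10 members was not tested.

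Of the neutrophil markers, which bear on *Lyz2*, edgeR called 0 of 7 tested, 1 of them with an unadjusted p under 0.05, and DESeq2 and limma called 0. Their summed level overlapped, at 27.5 to 74.0 FPKM in controls and 16.0 to 101 FPKM in *Usp39*-HKO livers. *S100a8* (log2 fold change 0.38, edgeR adjusted p = 0.663) and *S100a9* (-0.05, adjusted p = 0.95, and 0.17 without TMM scaling) were the most abundant. Of 8 hepatocyte markers, 2 were called lower (*Serpina1a* and *Cps1*) and 6 not, and neither call held without TMM scaling (edgeR adjusted p = 0.0584 and 0.16) or in limma. These markers had a summed level of 16047 to 17893 FPKM in controls and 14401 to 19417 FPKM in *Usp39*-HKO livers.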

How the data were processed

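Liver RNA of 8 mice was sequenced as 1 paired library each. Per the submitters' processing notes, reads were trimmed with Trim Galore 0.6.1 and checked with FastQC 0.11.9. HISAT2 aligned them to mm10, and after sorting with samtools the authors obtained counts per gene from featureCounts. The annotation release, strand setting and treatment of multi-mapping reads are not given in the sources used here. The deposited table holds raw counts, exon lengths in bases and FPKM, which the authors computed from both. The authors' own DESeq2 comparison, also deposited as a mean normalized signal, log2 fold changes, their errors and Wald statistics (scores) and p-values, was not used.

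Repeated entries (314 of 55699) were read once. Genes that reached 0.5 FPKM in 4 or more of 8 livers were tested with the quasi-likelihood test of edgeR 4.0.16 on the counts (TMM scaling, two-sided, Benjamini-Hochberg over 14340 genes). *Trem2* and *Gpnmb* were taken from the planned fit with edgeR's filterByExpr. A median log2 fold change of a list is over its tested genes. DESeq2 1.42.0, limma 3.58.1, other filters and scalings, and leaving out each liver were alternatives. Ratios used counts plus 0.5. A floor of 3 counts was 0.288 to 0.349 CPM and covers counting error only. Counts varied between livers of one genotype beyond counting error, with a chi-square of 7.02 to 36.4 per degree of freedom over 12 pairs. The fit was tested on simulated data. Coordinates are from GENCODE vM21 (GRCm38), and shared sequence was found with BLAST+ 2.17.0+.

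The members and lists were chosen with earlier results of these data known. Named were all members, their near copies, *Usp39*, the 3 genes closest to *Clec4f* and to *Trem2*, and from each list at most 5 called genes per direction and 2 uncalled ones. *Csf1*, *Mmp12*, *Mki67*, *Cd9*, *Siglech*, *Flt3* and the 5 genes of the summed reference are named beyond that rule.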

Additional observations from a re-analysis of the deposited data

Results flagged for a closer look

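The check covered 90 groups of 4 livers, for the members and the genes named by the rule from the macrophage lists. Other genes of those lists were not covered. In 3 groups, the gap of a liver to the others was large against the range of its group (Dixon's test at the 95% level). By chance about 1 in 20 would be flagged. *Marco* stood at 49.1 FPKM in control 2 and at 18.2 to 21.0 FPKM in the other controls. *Tgfb1* stood at 4.58 FPKM in control 2 and at 3.29 to 3.50 FPKM in the other controls. *Vcam1* stood at 19.2 FPKM in *Usp39*-HKO 4 and at 12.5 to 12.8 FPKM in the other *Usp39*-HKO livers.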

How the results depend on the processing

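No paired analysis was possible because the labels give the livers no replicate numbers, and those used here follow accession order. edgeR called 5 of 8 members tested, and between 4 and 7 were called under the alternatives, 4 to 6 with a liver left out. The 7 were 7 of 10 tested with the count-based filter, where 12.3% of all genes were called higher. They were 7 of 8 without TMM, where the median log2 fold change over all genes was 0.24. *Vsig4*, *Cd5l*, *Marco* and *Lyz2* passed in all 16 alternatives run, *Trem2* and *Gpnmb* in all 11, including those added after seeing the data. For *Trem2*, all of these but the fit without a filter kept the selection through the *Usp39*-HKO livers. *Clec4f* lost its call in 6 of 16, and *Adgre1* gained one in 4 and *Timd4* in 1. *Ly6c2*, which was never called, ranged from -0.16 to 0.23 over livers left out, with a negative sign without *Usp39*-HKO 4 (-0.16), control 3 (-0.022) or control 4 (-0.059).

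*Usp39* lost its call in limma on log2(FPKM + 0.1) (-0.18) and log2(FPKM + 1) (-0.16), without TMM (-0.18), and without *Usp39*-HKO 4 or control 4, with a range of -0.45 to -0.35 over livers left out. Other resident Kupffer genes called rose from 5 to 8 without TMM, where the share of all genes called was not counted. At a mean FPKM of at least 5, which tests fewer genes, 2 other monocyte genes and 3 ligands were called. With a liver left out, 2 to 7 ligands were called. Members above all controls relative to *Adgre1* numbered 0 with the summed reference and 2 to 4 with a liver left out, 4 without control 2 or *Usp39*-HKO 2. Apart from the alternatives' own construction, the cause was not tested. Low counts limit *Trem2*, *Gpnmb* and *Ly6c2* most.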

Other observations

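Of 8 markers of sinusoidal endothelium, 2 were called lower, the hyaluronan receptors *Lyve1* (log2 fold change -0.997, edgeR adjusted p = 0.016) and *Stab2* (-0.37, adjusted p = 0.0481). Their summed level was 125 to 142 FPKM in controls and 129 to 137 FPKM in *Usp39*-HKO livers, and *Clec4g* (0.02) and *Oit3* (-0.32) did not pass. Without TMM scaling, 1 was called lower and 2 higher, with a median log2 fold change of 0.24 over all genes. Among 7 erythroid genes tested, 5 were called lower, the globins *Hbb-bt* (-1.76), *Hba-a2* (-1.57), *Hba-a1* (-1.38) and *Hbb-bs* (-1.24) and the heme synthesis enzyme *Alas2* (-1.72). Their summed level was 372 to 775 FPKM in controls and 160 to 368 FPKM in *Usp39*-HKO livers.

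edgeR called 0 of 7 lymphocyte markers, 0 with an unadjusted p under 0.05, and DESeq2 called 0 and limma 1. Of the dendritic cell markers, edgeR called 0 of 5, 0 with an unadjusted p under 0.05, and DESeq2 and limma called 0. In the edgeR fit with the count-based filter, 2 dendritic cell markers that had missed the FPKM filter were called higher, *Siglech* (1.63, adjusted p = 0.0157) and *Flt3* (1.20, adjusted p = 0.0311), on 5 to 47 and 6 to 34 counts per liver. That fit called 12.3% of all genes higher. Both markers needed the *Usp39*-HKO livers to pass its filter, so their calls are no independent support. In FPKM the groups overlapped for both. The most abundant were *Jchain* (1.002, adjusted p = 0.181) and *Nkg7* (0.35, adjusted p = 0.361) of lymphocytes, and *Clec9a* (0.30, adjusted p = 0.325) and *Zbtb46* (-0.02, adjusted p = 0.93, and 0.22 without TMM scaling) of dendritic cells.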
